A study of Mus musculus with 12 samples.

Results

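The neutrophil experiment compared polymorphonuclear neutrophils (PMNs) of glutamine-treated mice with those of vehicle-treated mice after renal ischemia-reperfusion injury (IRI). Its members were chosen by their labels and made up 6 of the 12 samples of the series: 3 libraries from glutamine-treated mice and 3 from vehicle-treated mice. Values are given in the order of the libraries' label numbers within a group, vehicle before glutamine, and the libraries are called the first, the second and the third of their group, an order without meaning. The animals were male C57BL/6J wild-type mice in which both renal pedicles had been clamped for a time to induce acute kidney injury, so the groups shared the injury and differed in the infusion, the alanyl-glutamine dipeptide in saline or saline alone. Blood neutrophils were collected 24 hours after IRI. A healthy or sham-operated neutrophil library was not analysed here, and how the blood neutrophils were isolated and when glutamine was infused are not given for these libraries in the sources used here. The other 6 samples are renal tubular epithelial cells (TECs) of the same model, and they serve below as a reference for marker levels, for the spread between libraries and for a pair of genes.

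Neutrophils are short-lived granulocytes that leave the bone marrow with their granule proteins already made, so transcripts of the granule precursors are normally low in blood neutrophils while transcripts of receptors and inflammatory mediators are high. In the ischemic kidney they are among the first cells recruited, and interleukin-1, chemokines and Toll-like receptor ligands switch on the NF-kB program in them. Glutamine is taken up by amino acid and peptide carriers, is turned into glutamate, and feeds glutathione synthesis, nucleotide synthesis and the respiratory chain.

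Each PMN library held between 20225225 and 21878430 estimated counts, spread over 11801 to 13580 gene symbols with a count. Levels are given in CPM, the count of a gene scaled to the library's total. A count of 3, the floor used here for detection, corresponded to 0.137 to 0.148 CPM, a limit that covers counting error only. No gene on chromosome X, chromosome Y or the mitochondrial genome was analysed here, which leaves out the oxidase subunit gene Cybb. The study's methods describe groups of several mice per experiment in general, but no source used here ties each PMN library to a mouse of its own, so p-values measure the spread between these libraries, which may be partly technical.

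The libraries carried the transcripts of neutrophils. Per kilobase of exon, S100a9 and S100a8, the subunits of the alarmin calprotectin, were the most abundant protein-coding transcripts of the PMNs (ribosomal protein genes set aside), with means of 26886 and 25087 CPM per kilobase over the 6 libraries, followed by Retnlg, a resistin-like gene of mouse neutrophils, at 11295. The S100a8 level was 18233, 12625 and 26050 CPM in the vehicle libraries, and 26040, 15004 and 6511 CPM in the glutamine libraries. The third glutamine library was thus the lowest and the groups overlapped.

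Csf3r, the receptor for the granulocyte growth factor G-CSF, was at 1134, 579 and 907 CPM with vehicle and at 1092, 1017 and 1764 CPM with glutamine. Cxcr2, the chemokine receptor that draws neutrophils to tissue, was at 1088, 466 and 580 CPM with vehicle and at 985, 607 and 837 CPM with glutamine. The groups overlapped for both receptors, for Csf3r only between 1017 and 1134 CPM, and the third glutamine library, lowest for S100a8, was the highest for Csf3r. Summed over these 4 markers, the level was 34179 ± 10281 CPM (SD, n = 3) with vehicle and 32396 ± 16847 CPM (SD, n = 3) with glutamine, a difference smaller than the spread within either group (exact permutation test, two-sided, p = 0.900, where 3 against 3 libraries cannot give less than 0.1). In the TEC libraries the same sum was 97.6 to 235 CPM. Ly6g, a surface marker used to sort mouse neutrophils and named here after its values were seen, was at 48.5 to 172 CPM in the PMNs and at 0.0978 to 1.67 CPM in TECs.

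**Figure D1:**
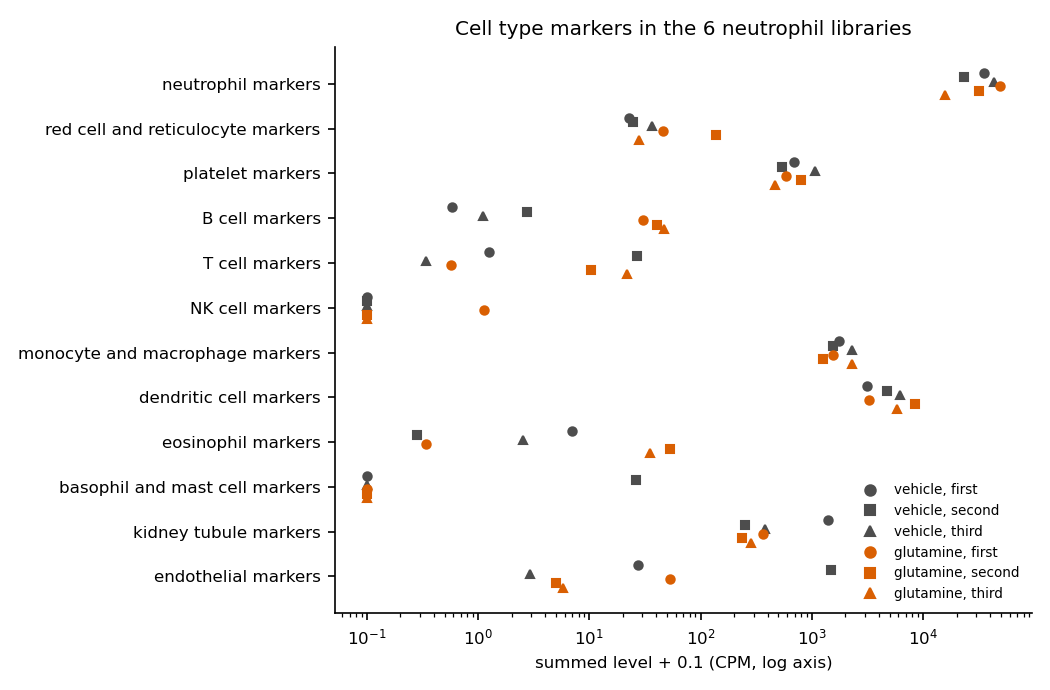
Summed level of each cell type marker list (CPM plus 0.1, log axis) in each PMN library, with gray symbols for vehicle and orange symbols for glutamine. Neutrophil markers lie between 15820 and 49503 CPM in all 6 libraries, the NK cell list at 0 in 5 of them, the tubule list highest in the first vehicle library at 1396 CPM and the endothelial list highest in the second vehicle library at 1493 CPM.

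Granule genes ranged from sparse to abundant. Mpo, the myeloperoxidase of primary granules, was at 47.6 CPM in the first glutamine library and at 0 counts in the other 5. Camp, the cathelicidin gene of secondary granules, was at 46.3 CPM in the first glutamine library and 23.7 CPM in the third vehicle library, and at 0.0457 CPM or 0 elsewhere. In contrast, Chil3, a chitinase-like protein of granules, was at 2453 to 4365 CPM, and Mmp8, the neutrophil collagenase, at 1054 to 2411 CPM. Ngp, another granule protein gene, varied more than either, from 46.2 CPM in the third glutamine library to 1555 CPM in the first glutamine library.

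Markers of other cells were also present. Csf1r, the growth factor receptor of monocytes and macrophages, was at 443, 264 and 390 CPM with vehicle and at 453, 467 and 986 CPM with glutamine (log2 fold change 0.83 ± 0.40 (SE), edgeR unadjusted p = 0.0808). Fcgr1, an immunoglobulin receptor gene of the same list, was at 120, 122 and 175 CPM with vehicle and at 63.3, 34.6 and 79.9 CPM with glutamine (log2 fold change -1.18 ± 0.57 (SE), unadjusted p = 0.0763). The groups did not overlap for either gene, and they lay in opposite directions. Ptprc, the CD45 gene of all leukocytes, chosen after its values were seen, was at 545, 317 and 576 CPM with vehicle and at 679, 838 and 1134 CPM with glutamine, again without overlap (log2 fold change 0.91 ± 0.33 (SE), unadjusted p = 0.0280). The edgeR adjusted p of all 3 was 1. H2-Ab1, a class II histocompatibility gene of antigen-presenting cells, ranged from 1083 to 4074 CPM. The dendritic cell and class II list it belongs to summed to 3114 to 6258 CPM with vehicle and 3235 to 8412 CPM with glutamine, and 4 of its 8 genes exceeded 3 counts in every library, while Cd209a was at 0 counts in all 6. Cd74, the class II invariant chain gene and also chosen after its values were seen, was at 3831 to 10587 CPM, and in the third glutamine library it was above S100a8. The monocyte and macrophage list summed to 1544 to 2290 CPM with vehicle and 1250 to 2289 CPM with glutamine, and 7 of its 8 genes exceeded 3 counts in every library. C1qa, a complement gene of tissue macrophages that was chosen after its values were seen, was highest in the third glutamine library at 2534 CPM, against 277 to 1137 CPM in the other libraries. The platelet list summed to 534 to 1066 CPM with vehicle and 466 to 794 CPM with glutamine, and 2 of its 7 genes exceeded 3 counts in every library. These were the chemokine genes Pf4, at 395 to 1035 CPM, and Ppbp, at 29.3 to 213 CPM. Gp6, a platelet collagen receptor gene, was highest in the first vehicle library and at most 0.346 CPM elsewhere, while Gp9 and Treml1 were at or under 0.791 CPM in all 6. The part of these markers in any difference between the groups was not tested. In bulk libraries, fewer cells of a type and less RNA per cell cannot be told apart.

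Kidney transcripts were found in libraries of both groups. Kap, an androgen-regulated gene of proximal tubules, was at 388, 216 and 352 CPM with vehicle and at 276, 191 and 267 CPM with glutamine, against 3600 to 11371 CPM in TECs. Umod, the uromodulin gene of the thick ascending limb, was at 990 CPM in the first vehicle library and at most 30.1 CPM in the others. The first vehicle library also held 19106 CPM of Spp1, the osteopontin gene, against at most 1283 CPM elsewhere.

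The second vehicle library stood apart through vessel genes. Kdr, the VEGF receptor of endothelial cells, was at 621 CPM in the second vehicle library and at 0 counts in the other 5, and Plat, the tissue plasminogen activator gene, was at 12178 CPM in the second vehicle library against at most 70.3 CPM elsewhere. Cdh5, the endothelial cadherin gene, was at 16.1, 225 and 1.93 CPM with vehicle and at 0.569, 0 and 0.0989 CPM with glutamine. It was lower in every glutamine library than in every vehicle library (edgeR unadjusted p = 0.0179, adjusted p = 1) and passed the filter through its vehicle counts alone. Among the other endothelial genes the groups overlapped for Pecam1, at 52.4 CPM in the first glutamine library. They also overlapped for the sum of the list, at 2.84 to 1493 CPM with vehicle and 4.88 to 53.0 CPM with glutamine. With no expression filter all 5 genes of the list had negative log2 fold changes, and none passed the adjusted test. Tie1 was at 9.35 CPM in the first vehicle library and at 49.3 CPM in the second. Genes at 100 CPM or more in 1 library and at least 10 times higher there than in every other library numbered 80 in the second vehicle library and 14 in the first vehicle library, and 1 to 5 in each of the other 4. These genes took 3.66% of the counts of the second vehicle library and 2.24% of those of the first vehicle library.

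Few B cell transcripts were found, and 1 of them, Cd79b, lay apart between the groups. Cd79b, the beta chain of the B cell receptor complex, was at 0 counts in the 3 vehicle libraries and at 28.2, 19.0 and 23.5 CPM with glutamine, at least 166-fold higher against a floor of 3 counts per library. It entered the test through its glutamine counts alone, and its edgeR adjusted p was 0.713. Ms4a1, the CD20 gene and the only member of the list over 3 counts in every library, was at 0.484, 2.19 and 1.01 CPM with vehicle and at 1.90, 2.37 and 1.24 CPM with glutamine, and there the groups overlapped. Cd79a, the partner of Cd79b, was at 0 counts in all 3 glutamine libraries, as was the B cell gene Pax5 in all 6 libraries. The B cell list summed to 0.484 to 2.65 CPM with vehicle and 30.1 to 47.2 CPM with glutamine (exact permutation test, two-sided, p = 0.1, as low as these numbers of libraries can go), where Cd79b and, in the second and the third glutamine library, Ighm made up nearly all of the glutamine sums.

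The spread between PMN libraries was wide. The biological coefficient of variation, the relative spread between libraries beyond counting noise, was 1.4 over the 10130 genes tested in PMNs and 0.367 in the TEC libraries of the same series. The 2 columns deposited for each PMN library had a Pearson correlation of 0.989 to 0.993 on log2 counts, whereas different libraries correlated at 0.443 to 0.516. Pairs within a group had a median of 0.471 and pairs between the groups a median of 0.466, so libraries of the same treatment resembled each other about as much as libraries of different treatments. These correlations run across genes, which are not independent replicates.

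Much of that spread lay in genes present in some libraries and missing from others. Of the tested genes, 5793 (57.2%) exceeded 3 counts in all 6 libraries, and 1415 (14.0%) reached 50 CPM in at least 1 library while another library had no count. Abundant genes varied less between libraries. The median within-group SD was 2.52 on the log2 CPM scale for genes averaging 10 to 30 CPM, 0.68 for 100 to 300 CPM and 0.34 for the 133 genes at 1000 CPM or more.

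**Figure D2:**
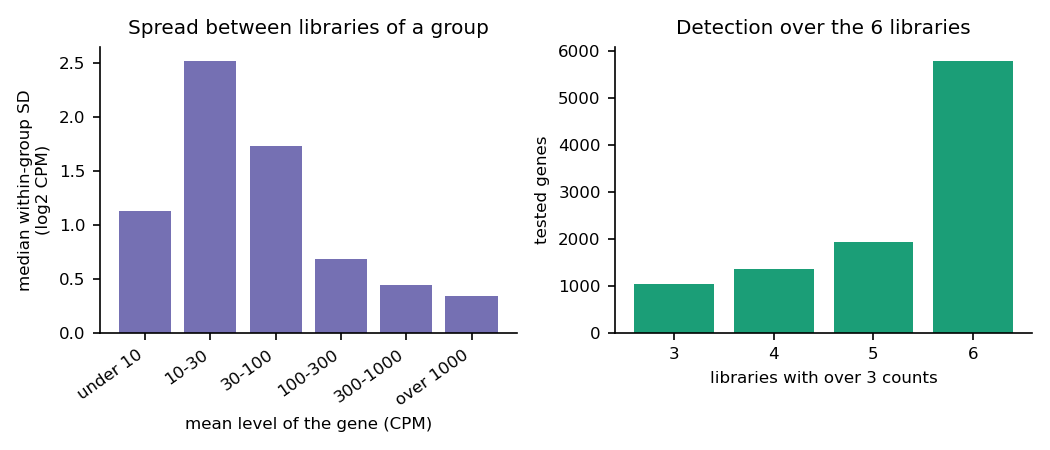
Left, median within-group SD (log2 CPM, pseudocount 0.5) of the tested genes by mean level of the gene. Right, number of tested genes by the number of PMN libraries in which they exceeded 3 counts. The SD is highest, at 2.52, for genes of 10 to 30 CPM and 0.34 for those over 1000 CPM, and 5793 genes were found in all 6 libraries.

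To ask which transcripts differed with glutamine, the 10130 genes were tested with edgeR's quasi-likelihood test. None (0%) had a Benjamini-Hochberg adjusted p below 0.05, and the lowest adjusted p was 0.713. An unadjusted p below 0.05 was reached by 346 genes (3.42%), of which 207 (2.04% of all tested) were higher and 139 (1.37%) were lower with glutamine. The groups did not overlap for 1067 genes (10.5%), 570 of them higher (5.63%) and 497 lower (4.91%). Positive log2 fold changes made up 50.0% of all tested genes and 51.7% of the 1631 genes at 100 CPM or more, and the median log2 fold change was 0.00. The share was larger among abundant genes, at 57.5% of the 374 genes from 300 to 1000 CPM and 72.9% of the 133 genes at 1000 CPM or more. Of these 133 genes, whose median log2 fold change was 0.21, 16 had an unadjusted p below 0.05. Their median was 0.15 with RLE scaling, 0.26 with upper quartile scaling and 0.10, with 58.6% positive, without the first glutamine library. DESeq2's Wald test, run on the same counts, gave 236 genes (2.33%) an adjusted p below 0.05, and limma-voom gave 0.

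The 10 genes in each direction with the lowest unadjusted p were taken from those at 10 CPM or more whose groups did not overlap, so separate groups and a small spread come with the choice. None passed the adjusted test in edgeR, whereas all of them had an adjusted p below 0.05 in DESeq2. Coq10b, which encodes a binding protein for coenzyme Q in the mitochondrial inner membrane, was at 99.3, 82.1 and 107 CPM with vehicle and at 398, 285 and 403 CPM with glutamine. The log2 fold change was 1.96 ± 0.36 (SE) (edgeR, unadjusted p = 0.00105, adjusted p = 0.713). Coq10b lies on chromosome 1 (chr1:55052770-55072702, mm10). Lyst, the lysosomal trafficking regulator whose loss gives giant granules in neutrophils, was at 88.4, 90.5 and 51.4 CPM with vehicle and at 439, 331 and 238 CPM with glutamine (log2 fold change 2.18 ± 0.46 (SE), unadjusted p = 0.00213).

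Nckap1l, the hematopoietic subunit of the actin-regulating WAVE complex, was at 204, 118 and 182 CPM with vehicle and at 537, 415 and 526 CPM with glutamine (log2 fold change 1.60 ± 0.35 (SE), unadjusted p = 0.00285). Neat1, the long noncoding RNA that scaffolds nuclear paraspeckles, was at 1556, 1645 and 1611 CPM with vehicle and at 2127, 3110 and 3139 CPM with glutamine (log2 fold change 0.83 ± 0.18 (SE), unadjusted p = 0.00252). All 3 of Lyst, Nckap1l and Neat1 had an edgeR adjusted p of 0.713.

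The other 6 of the 10 higher genes, Rap1gap2, Zfp652, Gtf2a1, Arfip1, Kbtbd2 and Tec, were at or near 0 counts in the vehicle libraries. Gtf2a1, a subunit of the general transcription factor TFIIA, had no count with vehicle and was at 71.5, 45.4 and 28.4 CPM with glutamine, at least 340-fold higher against 3 counts per library. The 10 lower genes were all of this kind: Surf2, Mis12, Orc5, Cpsf2, Golt1b, Ank, Coq7, Ap3m2, Lxn and Lgals4 were at most 104 CPM in each vehicle library and at most 0.474 CPM with glutamine. Golt1b, a vesicle transport gene, was at 28.2, 99.6 and 41.3 CPM with vehicle and at 0 counts with glutamine, at least 389-fold lower. Of the 346 genes with unadjusted p below 0.05, 110 were at or under 3 counts in every library of one group and passed the expression filter through the other group alone. For comparison, 1038 tested genes exceeded 3 counts in exactly 3 of the 6 libraries, and in 65 of them those were the 3 glutamine libraries, in 45 the 3 vehicle libraries.

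All 40 genes of the list of interleukin-1, TNF, chemokine and NF-kB genes were tested, 32 had a positive and 8 a negative log2 fold change, and the median was 0.39, beside 50.0% positive and a median of 0.00 over all tested genes. None passed the adjusted test. Many of the list's genes are abundant, so they are also set beside genes of like level. At 1000 CPM or more 13 of 16 list genes (81.2%) were higher, with a median of 0.34, beside 72.9% and 0.21 of all tested genes there, and from 300 to 1000 CPM 9 of 10 were higher, beside 57.5%. Ptprc and Csf1r were also higher in every glutamine library than in every vehicle library (log2 fold changes 0.91 and 0.83), and their part in these values was not tested. Csf1r belongs to the monocyte and macrophage list, where 4 of 8 tested genes were higher and 4 lower, with a median of -0.02. Of the 40 list genes, 7 had an unadjusted p below 0.05. All 7 were higher and without overlap of the groups, beside 2.04% and 5.63% of all tested genes. Of these 7 genes 5 were among the 16 at 1000 CPM or more. There 10.5% of all tested genes were higher with such a p, and the groups did not overlap for 15.0%, counting both directions. Another 1 was among the 10 from 300 to 1000 CPM, where these shares were 4.81% and 12.8%. The 33 list genes with a RefSeq promoter (GRCm38.p6, from 250 bases before to 50 after the start) were searched on both strands for the kB consensus, the DNA motif bound by NF-kB. It was found for 11 of them (33.3%), beside 601 of 7114 tested genes with a promoter (8.45%), and for 3 of the 7 genes, whose promoters are shown 5′ to 3′ with the match in capitals. The list was put together to hold NF-kB genes, so a share above that of all tested genes comes with that choice. It says nothing about a difference with glutamine. A match is only a description of the letters.
Cxcl1, chr5:90890995-90891294, plus strand: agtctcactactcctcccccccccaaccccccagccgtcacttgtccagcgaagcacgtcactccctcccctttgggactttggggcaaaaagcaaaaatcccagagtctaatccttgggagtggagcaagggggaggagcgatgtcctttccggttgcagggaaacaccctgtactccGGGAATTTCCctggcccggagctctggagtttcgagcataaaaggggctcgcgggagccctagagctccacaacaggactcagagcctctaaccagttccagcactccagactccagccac
Nfkbia, chr12:55492598-55492897, minus strand: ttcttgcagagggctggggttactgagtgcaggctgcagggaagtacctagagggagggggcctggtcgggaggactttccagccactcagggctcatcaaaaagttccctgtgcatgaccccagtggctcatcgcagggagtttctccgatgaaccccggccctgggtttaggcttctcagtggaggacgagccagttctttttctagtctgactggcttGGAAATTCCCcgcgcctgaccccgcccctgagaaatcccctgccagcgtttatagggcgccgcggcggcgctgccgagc
Tlr2, chr3:83841559-83841858, minus strand: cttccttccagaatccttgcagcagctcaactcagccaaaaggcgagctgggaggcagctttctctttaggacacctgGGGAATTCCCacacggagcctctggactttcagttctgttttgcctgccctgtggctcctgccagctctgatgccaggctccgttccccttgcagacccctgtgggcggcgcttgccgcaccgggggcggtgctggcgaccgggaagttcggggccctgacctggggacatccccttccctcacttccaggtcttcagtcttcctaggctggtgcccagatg

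In Cxcl1 the match began at base -71 from the start site, in Nfkbia at -29 and in Tlr2 at -172. Cxcl1, a ligand of Cxcr2, was at 182, 123 and 221 CPM with vehicle and at 490, 255 and 322 CPM with glutamine (log2 fold change 1.08 ± 0.43 (SE), unadjusted p = 0.0404). Nfkbia, the inhibitor that holds NF-kB in the cytoplasm and is itself an NF-kB target, was at 3879, 3174 and 3297 CPM with vehicle and at 5318, 4147 and 5123 CPM with glutamine (log2 fold change 0.54 ± 0.19 (SE), unadjusted p = 0.0266). In both genes every glutamine library lay above every vehicle library.

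Among the ligands, Il1b, the precursor of interleukin-1 beta, was at 7684, 5875 and 8101 CPM with vehicle and at 8829, 9869 and 8855 CPM with glutamine (log2 fold change 0.38 ± 0.15 (SE), unadjusted p = 0.0422). Cxcl2, a further Cxcr2 ligand, was at 7802, 5493 and 6903 CPM with vehicle and at 10751, 8124 and 7518 CPM with glutamine, and there the groups overlapped. Tnf, the tumor necrosis factor gene, was at 830, 322 and 390 CPM with vehicle and at 739, 381 and 623 CPM with glutamine. Unlike Il1b, neither Cxcl2 nor Tnf reached an unadjusted p below 0.05.

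Among the receptors, Il1r2, the decoy receptor that binds interleukin-1 without signaling, was at 6365, 6384 and 6725 CPM with vehicle and at 8653, 9484 and 7634 CPM with glutamine (log2 fold change 0.44 ± 0.13 (SE), unadjusted p = 0.0108, adjusted p = 0.886 in edgeR). Tlr2, a receptor for bacterial lipopeptides, was at 456, 400 and 402 CPM with vehicle and at 713, 626 and 621 CPM with glutamine (log2 fold change 0.68 ± 0.25 (SE), unadjusted p = 0.0295). Both sets of vehicle values were tight and lay wholly below the glutamine values. Cd14, the lipopolysaccharide co-receptor, was at 9569 to 12544 CPM with vehicle and 9932 to 12905 CPM with glutamine, ranges that nearly coincide.

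Among the inhibitors, Socs3, which dampens cytokine receptor signaling, was at 579, 1032 and 829 CPM with vehicle and at 1086, 1429 and 1556 CPM with glutamine (log2 fold change 0.77 ± 0.26 (SE), unadjusted p = 0.0225). Zfp36, which speeds the decay of cytokine mRNAs, was at 4842, 3795 and 4332 CPM with vehicle and at 4948, 5727 and 7312 CPM with glutamine (log2 fold change 0.50 ± 0.18 (SE), unadjusted p = 0.0290). Its lowest glutamine library, the first, lay close above the highest vehicle library. Apart from Il1r2, the edgeR adjusted p of the 7 genes was 1. The median of the list stayed between 0.19 and 0.44 under the alternatives, but the count of 7 was 2 without the second vehicle library, 3 without any one of the third vehicle library and the 3 glutamine libraries, and 2 when only genes with 10 counts in every library were kept. Each of the 7 genes had an unadjusted p at or over 0.05 without at least 1 library, Il1r2 only without the second glutamine library.

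**Figure D3:**
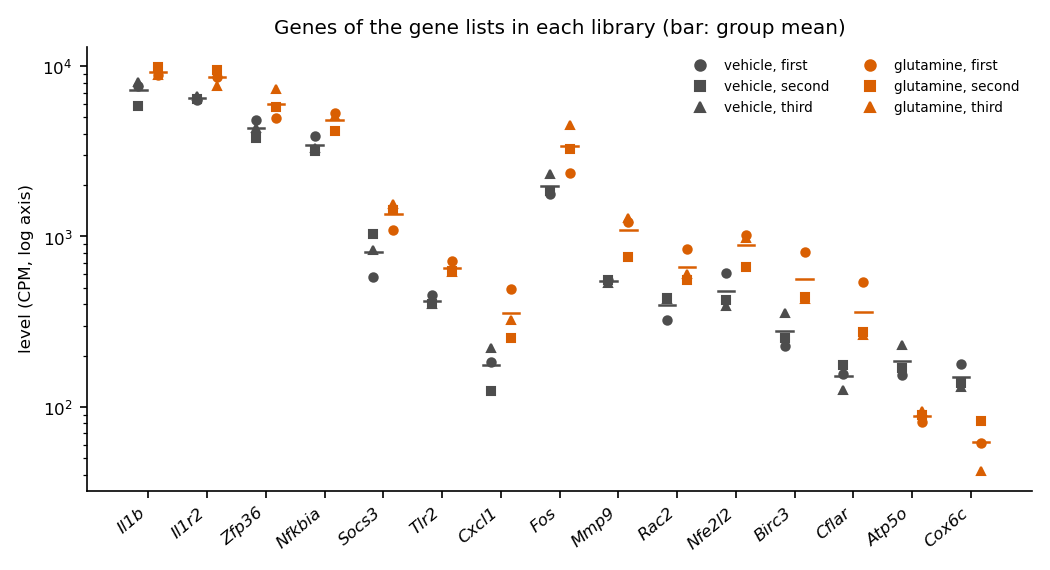
Level (CPM, log axis) in each PMN library of genes of the lists with an unadjusted p below 0.05, gray for vehicle and orange for glutamine, with a bar at the group mean. In each gene shown the groups do not overlap, with Il1b to Cflar higher and Atp5o and Cox6c lower with glutamine.

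Most genes of oxidative phosphorylation had negative log2 fold changes. Of 72 nuclear-encoded respiratory chain genes tested, 63 had a negative and 9 a positive log2 fold change, with a median of -0.43. The groups did not overlap for 16 of them, all lower with glutamine, beside 4.91% of all tested genes. Their summed level was 10357, 10303 and 11250 CPM with vehicle and 8164, 8714 and 6331 CPM with glutamine, so that every glutamine library was below every vehicle library. The same order was seen for Fcgr1 (log2 fold change -1.18), and the part of the cells that carry it was not tested. Fcgr1 belongs to the monocyte and macrophage list, where 4 of 8 tested genes were higher and 4 lower, with a median of -0.02. None of the 72 respiratory chain genes passed the adjusted test. An unadjusted p below 0.05 was found for 2 of them, both lower, beside 1.37% of all tested genes.

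Atp5o, a subunit of the ATP synthase stalk, was at 154, 169 and 232 CPM with vehicle and at 81.4, 89.0 and 94.9 CPM with glutamine (log2 fold change -1.02 ± 0.42 (SE), unadjusted p = 0.0463). Cox6c, a subunit of cytochrome c oxidase, was at 179, 138 and 130 CPM with vehicle and at 61.5, 82.4 and 42.2 CPM with glutamine (log2 fold change -1.24 ± 0.52 (SE), unadjusted p = 0.0485). The edgeR adjusted p of both was 1. The median of the list was -0.58 to -0.27 under the alternatives, nearest 0 without the third glutamine library. The count of 2 lower genes became 0 without the first or the second vehicle library or the third glutamine library, with upper quartile scaling and with no expression filter, and 12 in DESeq2. It was 6 in limma-voom, with or without sample quality weights, and 1 without the third vehicle or the first glutamine library. With sample quality weights, and without the first vehicle library, 1 gene was higher with an unadjusted p below 0.05. Without any one library the unadjusted p was at least 0.0538 for Atp5o and at least 0.0703 for Cox6c.

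The cytosolic ribosomal protein genes, which encode the subunits of the translating ribosome, had 62 negative and 13 positive log2 fold changes among 75 tested, with a median of -0.29, and none had an unadjusted p below 0.05. The groups did not overlap for 11 of them, all lower with glutamine, beside 4.91% of all tested genes. Counting both directions, the share was 12.4% of all tested genes from 100 to 300 CPM and 12.8% from 300 to 1000 CPM. Of the 75 ribosomal protein genes, 55 lay under 300 CPM. Their summed level was 17310, 17104 and 24221 CPM with vehicle and 16182, 18230 and 13217 CPM with glutamine, and the groups overlapped. Without the third vehicle library the median was -0.12 and without the third glutamine library it was -0.18. Many ribosomal protein genes have processed pseudogenes, so the share of reads given to each is uncertain.

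**Figure D4:**
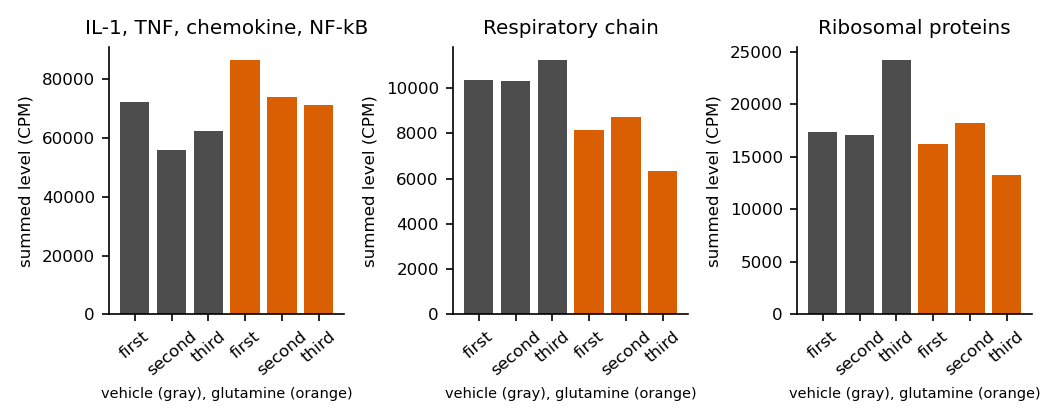
Summed level (CPM) of the inflammatory, respiratory chain and ribosomal protein lists in each PMN library, gray bars for vehicle and orange bars for glutamine. Only the respiratory chain sum separates the groups, with vehicle at 10303 to 11250 CPM and glutamine at 6331 to 8714 CPM.

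The effector genes of the neutrophil gave single members with low p-values. Of 14 specific and gelatinase granule genes tested, 9 were higher and 1 had an unadjusted p below 0.05, beside 3.42% of all tested genes. That gene, Mmp9, the gelatinase that degrades basement membrane, was at 555, 555 and 532 CPM with vehicle and at 1209, 761 and 1288 CPM with glutamine (log2 fold change 1.04 ± 0.29 (SE), edgeR unadjusted p = 0.00887, adjusted p = 0.852). The median of this list was 0.26 and turned to -0.12 without the first glutamine library.

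Of 15 maturation and ageing genes tested, 12 were higher, with a median of 0.37. Without the first glutamine library 10 were higher and the median was 0.20. At 1000 CPM or more 5 of 6 were higher, beside 72.9% of all tested genes there. Fos, an immediate early transcription factor gene, was at 1768, 1848 and 2319 CPM with vehicle and at 2356, 3268 and 4528 CPM with glutamine (log2 fold change 0.80 ± 0.25 (SE), unadjusted p = 0.0139). The first glutamine library lay just above the highest vehicle library. Retnlg, of the same list, was at 5226 to 8465 CPM with vehicle and at 2784 to 10932 CPM with glutamine, the glutamine range enclosing the vehicle range. The unadjusted p of Mmp9 and Fos stayed below 0.05 without any one library, at 0.0315 and 0.0468 at most.

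Of 24 trafficking receptor and integrin genes tested, 17 were higher, with a median of 0.21. Without the first glutamine library 13 were higher and 12 lower, and the median was 0.16 to 0.35 without 1 library. C3ar1, the receptor for the complement fragment C3a, was at 14.3, 87.1 and 43.0 CPM with vehicle and at 256, 149 and 144 CPM with glutamine (log2 fold change 2.0 ± 0.76 (SE), unadjusted p = 0.0337). The first vehicle library was far below the other vehicle libraries. Without it the unadjusted p of C3ar1 was over 0.05 and no gene of the list was below it. The p of C3ar1 was also over 0.05 without the third vehicle library or any one glutamine library, at 0.121 at most. C5ar1, the receptor for C5a, was at 1329 to 1711 CPM with vehicle and 1523 to 2296 CPM with glutamine.

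Of 6 NADPH oxidase genes tested, 4 were higher, with a median of 0.07 that turned to -0.15, with 2 higher, without the first glutamine library. Rac2, the small GTPase that activates the neutrophil oxidase, was at 322, 437 and 427 CPM with vehicle and at 839, 554 and 600 CPM with glutamine (log2 fold change 0.81 ± 0.31 (SE), unadjusted p = 0.0339). Without any one of the 3 vehicle libraries or the first glutamine library the p of Rac2 was over 0.05, at 0.131 at most. Cyba, the membrane subunit p22phox, was at 918 to 1576 CPM with vehicle and 900 to 1022 CPM with glutamine. For Mmp9, Fos, C3ar1 and Rac2 the groups did not overlap, whereas those of Retnlg, C5ar1 and Cyba did. The edgeR adjusted p was 0.959 for Fos and 1 for C3ar1 and Rac2.

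The genes that handle glutamine itself gave no member that stood out from the spread. Of 11 genes of glutamine and glutamate metabolism tested, 6 were higher, with a median of 0.25, and none had an unadjusted p below 0.05. The median turned to -0.13, with 4 of 11 higher, without the first vehicle library and to -0.08 without the second glutamine library. Without the second vehicle library it was 0.70 and 1 gene, lower with glutamine, had an unadjusted p below 0.05. Glul, the glutamine synthetase, was at 181, 223 and 345 CPM with vehicle and at 237, 191 and 130 CPM with glutamine. The groups overlapped.

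Of 15 carrier genes tested, 10 were higher, with a median of 0.35. Slc15a2, a peptide carrier that takes up dipeptides, was at 0.194, 0.183 and 3.42 CPM with vehicle and at 9.29, 14.5 and 83.3 CPM with glutamine (log2 fold change 4.85 ± 2.04 (SE), edgeR unadjusted p = 0.0494, adjusted p = 1). Slc1a5, the main glutamine carrier of dividing cells, was at 0.775, 24.8 and 20.2 CPM with vehicle and at 70.7, 17.2 and 94.0 CPM with glutamine. The first and the second vehicle library were near the floor of 3 counts for Slc15a2, which passed the expression filter only through the glutamine libraries. The groups were separate for Slc15a2, whose values lay far apart within the glutamine group, and overlapped for Slc1a5. The unadjusted p of Slc15a2 was below 0.05 without the third vehicle library and over it without any other one, at 0.162 at most, and the median of the list was 0.11 to 0.60 without 1 library.

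Of 32 antioxidant genes tested, 13 were higher and 19 lower, with a median of -0.07. Without the first glutamine library 7 were higher and 26 lower, with a median of -0.22, and without the third glutamine library the median turned to 0.09. An unadjusted p below 0.05 was found for 2 genes, Nfe2l2 and Gclc, beside 3.42% of all tested genes. Fth1, the ferritin heavy chain, was at 28841, 20517 and 25838 CPM with vehicle and at 27148, 25139 and 19189 CPM with glutamine. Nfe2l2, the gene of the redox-responsive transcription factor NRF2, was at 613, 422 and 392 CPM with vehicle and at 1019, 665 and 976 CPM with glutamine (log2 fold change 0.94 ± 0.33 (SE), unadjusted p = 0.0236, adjusted p = 1 in edgeR). Glutamine libraries were thus all higher for Nfe2l2, but not for Fth1. Gclc, the catalytic subunit of the enzyme that starts glutathione synthesis, was at 83.6, 8.27 and 5.40 CPM with vehicle and at 0, 0.193 and 0 CPM with glutamine (unadjusted p = 0.0164). Gclc passed the filter through its vehicle counts alone. The p of Nfe2l2 was over 0.05 without the second or the third vehicle library or the first or the third glutamine library, at 0.0783 at most.

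Of 27 apoptosis genes tested, 15 were higher, with a median of 0.10, beside 50.0% of all tested genes. An unadjusted p below 0.05 was found for 3, Bmf among them, all higher, beside 2.04% of all tested genes. Without the first glutamine library 13 were higher and 17 lower, the median turned to -0.15, and 1 gene was higher and 1 lower with such a p. Without the first vehicle library 1 was higher. Cflar, the inhibitor of caspase-8 activation, was at 155, 175 and 126 CPM with vehicle and at 537, 273 and 265 CPM with glutamine (log2 fold change 1.30 ± 0.44 (SE), unadjusted p = 0.0216). Birc3, an inhibitor of apoptosis that is also an NF-kB target, was at 226, 252 and 356 CPM with vehicle and at 815, 441 and 429 CPM with glutamine (log2 fold change 1.08 ± 0.40 (SE), unadjusted p = 0.0300). Both survival genes were highest in the first glutamine library. Bmf, which promotes apoptosis, had no count with vehicle and was at 28.8, 3.77 and 111 CPM with glutamine (unadjusted p = 0.00560). The edgeR adjusted p was 1 for Cflar and Birc3 and 0.738 for Bmf. Without 1 library the unadjusted p of Cflar and Birc3 reached 0.0900 and 0.138. Bmf entered the test through its glutamine counts alone.

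Redox and cell death genes followed in the tubular cell experiment were also examined in the neutrophils, where 9 of 10 could be tested and none had an unadjusted p below 0.05. Tgm2, the transglutaminase, was at 543, 609 and 268 CPM with vehicle and at 798, 622 and 1132 CPM with glutamine, so that the second glutamine library lay just above the highest vehicle library (log2 fold change 0.88 ± 0.40 (SE), edgeR unadjusted p = 0.0660). Map3k5, which encodes the stress kinase ASK1, was at 55.9, 12.8 and 26.6 CPM with vehicle and at 70.4, 149 and 37.4 CPM with glutamine (log2 fold change 1.43 ± 0.94 (SE)). Hmox1, the heme oxygenase, was at 1403, 745 and 1508 CPM with vehicle and at 560, 960 and 996 CPM with glutamine (log2 fold change -0.52 ± 0.34 (SE)).

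Bad, a proapoptotic member of the BCL2 family, was at 81.9, 14.1 and 69.8 CPM with vehicle and at 1.71, 13.4 and 12.7 CPM with glutamine (log2 fold change -2.59 ± 1.33 (SE), unadjusted p = 0.0939). The Bad values of the second vehicle and the second glutamine library were almost the same. Txn1, Glrx, Gsr, Mgst1 and Srxn1, which encode thiol-dependent redox proteins, had log2 fold changes of -0.25, 0.77, -0.10, -0.43 and -0.41, with standard errors of 0.40, 0.61, 0.42, 0.63 and 2.78, and their groups overlapped. Hrk, a BH3-only death gene, was at 0.0948 CPM or less in all 6 libraries.

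The remaining lists had medians from -0.30 to 0.36, with 8 of 11 lipid mediator genes higher, 11 of 18 glycolysis genes, 14 of 30 interferon-stimulated genes, 2 of 4 azurophil granule genes, 6 of 19 heat shock chaperones, 6 of 14 genes of the ATF4 and ER stress response, 4 of 8 clock genes and 3 of 7 proliferation genes. None of these genes had an unadjusted p below 0.05. Without 1 library at most 1 gene in each direction of any of these lists did, other than 3 interferon-stimulated genes, all lower, without the first vehicle library. The median kept its sign without any one library for the lipid mediator genes (0.16 to 0.63) and the heat shock chaperones (-0.29 to -0.03) and did not for the other lists. Ptgs2, the inducible cyclooxygenase, was at 626, 400 and 1001 CPM with vehicle and at 1532, 856 and 1232 CPM with glutamine. Ifitm2, an interferon-induced membrane protein gene, was at 3206 to 4128 CPM with vehicle and 1891 to 4157 CPM with glutamine. In both genes the groups overlapped. In the ASK1 to JNK cascade 9 of 16 genes were higher, and Map2k7, a kinase that activates JNK, had no count with vehicle and was at 0.521, 5.50 and 32.1 CPM with glutamine (edgeR unadjusted p = 0.0121, adjusted p = 0.911), so that it too entered the test through one group alone. The median of that list was 0.23 and turned to -0.21, with 7 of 16 higher, without the second glutamine library.

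**Figure D5:**
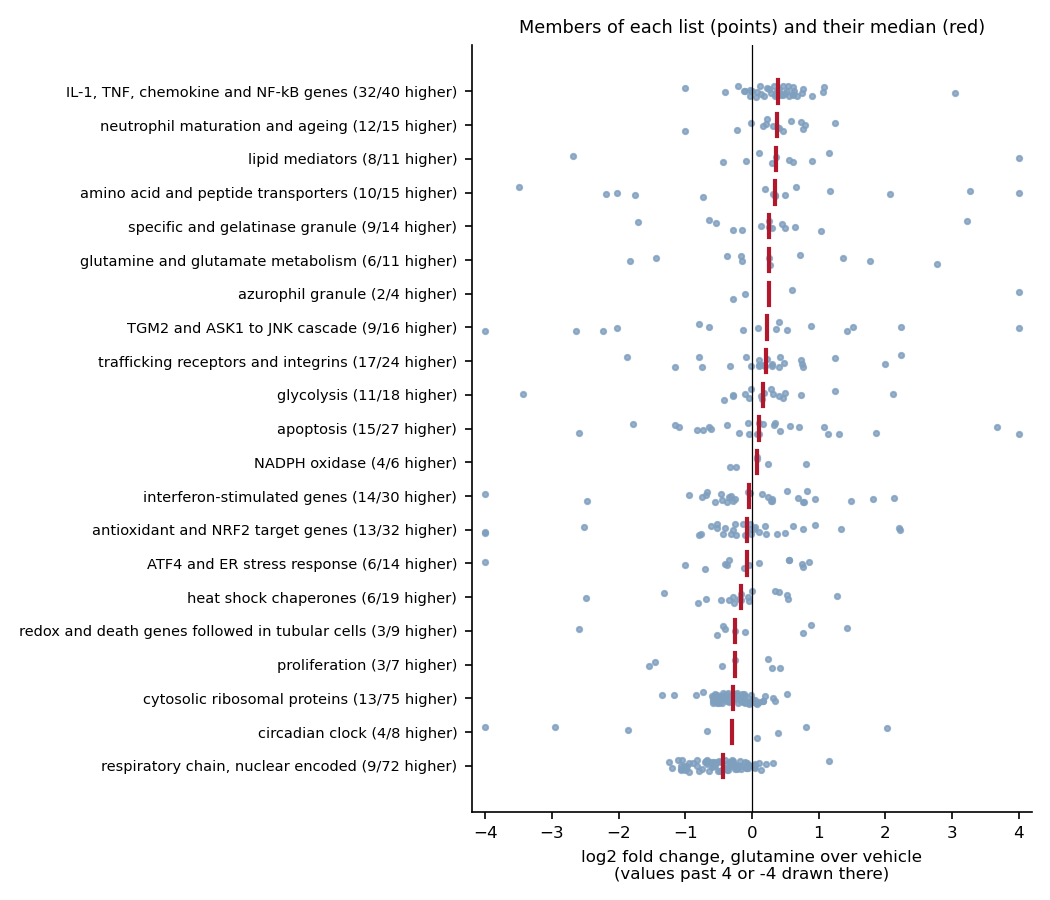
Log2 fold change (glutamine over vehicle, edgeR) of the tested members of each gene list, 1 point per gene with values past 4 or -4 drawn there, and the list's median as a red bar. The inflammatory list lies mostly to the right of 0, with 32 of 40 genes higher, and the respiratory chain list mostly to the left, with 9 of 72 higher.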

How the data were processed

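Neutrophil RNA was reverse transcribed from the poly-A tail and read as single-end 50-base reads on a DNB platform. The submitters' processing notes name Trim Galore 0.6.4, Salmon 1.0.0, DESeq2 and the mm10 build. For PMNs the authors deposited a table of estimated counts with 2 columns per library and gene symbols as rows. The deposited PMN values, of unit other, had been altered by a spreadsheet: 3.2% of cells held an extra point and 0.391% a date. Both were undone, and of 47122 values of 50 counts or more, 98.5% then had both columns within 1.5 times of each other. What separates the columns is not stated, so they were averaged and rounded. The TEC table holds expected counts as the authors deposited them.

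Genes passing filterByExpr were tested in the 6 PMN libraries alone with edgeR 4.0.16 (TMM, quasi-likelihood, no covariates, Benjamini-Hochberg) in R 4.3.3. DESeq2 1.42.0, limma 3.58.1, other scalings, filters, columns and leave-outs were alternatives. CPM uses plain library totals. Positions are from GENCODE M21. The split of the genes by level and the promoter search for the kB consensus were added after the results were seen, and a narrower spelling of the motif was searched before. The tests were tried on simulated data. The members, gene lists and tests were chosen with earlier results of these data known. Named genes were the markers, the genes followed in tubular cells, of each list the members with unadjusted p below 0.05 (at most 4) and the 2 most abundant, and 10 genes in each direction with the lowest p, a mean of at least 10 CPM and groups that do not overlap. Further genes named for their role, such as Tnf, Glul, Slc1a5, Cyba and Cxcl2, were picked from the lists after their values were seen, as were Ly6g, C1qa, Cd74, Ptprc, Spp1 and Plat.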

Additional observations from a re-analysis of the deposited data

Results flagged for a closer look

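Tgm2 was higher in every glutamine PMN library than in every vehicle PMN library, by 0.89 in mean log2 CPM, while in TECs it was at 240, 253 and 215 CPM with vehicle and at 166, 174 and 179 CPM with glutamine, a difference of -0.44. Lgals4, a galectin gene, had no count in the glutamine libraries of the PMNs and was at 42.2, 16.2 and 17.1 CPM with vehicle, at least 173-fold lower with glutamine against 3 counts per library. Its value of -5.54 in mean log2 CPM is set by the pseudocount of 0.5, and it passed the filter through its vehicle counts alone, while in TECs it was at 13.7, 15.8 and 18.6 CPM with vehicle and at 19.6, 23.5 and 39.1 CPM with glutamine. Both drew attention because the libraries of the 2 cell types lay on opposite sides of their controls, and the difference between the cell types was not tested.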

How the results depend on the processing

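The count of 0 genes with an adjusted p below 0.05 was also 0 with limma-voom, other scalings, other filters, either column, the sum of the columns, without any one library and with edgeR at a threshold of 0.1. The lowest adjusted p was 0.0722 in limma-voom and 0.0585 with sample quality weights. The count was 236 in DESeq2, of which 55.5% were higher. The cause was not tested. Unadjusted p below 0.05 was reached by 346 genes, by 868 in DESeq2, 653 in limma-voom, 647 with sample quality weights, 868 with no expression filter (19741 genes tested), and 458 to 543 without 1 library, where 11294 to 11651 genes were tested. The neutrophil marker sum differed by -1783 CPM, by -10336 to 6505 CPM without 1 library. The median correlation between libraries of 0.466 was 0.585 by Spearman, 0.774 over genes with 10 counts in every library and 0.560 with a pseudocount of 5. Of 54 genes followed under the 16 alternatives, 51 kept their sign under those in which they could be tested, which were all 16 for 31 genes and all but the filter of 10 counts in every library for 23, and 27 had an adjusted p below 0.05 in DESeq2. Without 1 library, Srxn1 ranged from -9.05 to 1.09, Glrx from -0.13 to 1.13 and Gsr from -0.56 to 0.18, and these 3 changed sign. No paired analysis was possible because the groups share no replicate number. Of 20 genes of the lists with an unadjusted p below 0.05, 5 kept it without any one library. Of these, Mmp9 and Fos had counts in every library, whereas Gclc, Map2k7 and Bmf were at or near 0 in one group and passed the expression filter through the other alone, so their p-values cannot be set beside the rest. Levels under 3 counts were not detectable at this depth.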
